A study of Mus musculus with 16 samples.

Results

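The heat shock genes described here were 10 of the 20295 genes in the count table: Hsf1, Hspa1a, Hspa1b, Hspa8, Hsph1, Dnajb1, Hspb1, Hsp90aa1, Bag3 and Hspd1. They were chosen as targets of heat shock factor whose products act outside the endoplasmic reticulum, and were selected on a measured value as well, the large rise of Hspa1a with SR-3420 alone against vehicle. That contrast is therefore given for them as a description, without a test. All 10 passed the filter on low counts and were among the 12786 genes tested. Hspd1 encodes the mitochondrial chaperonin HSP60 and Hsf1 encodes a transcription factor, so the set is a group of heat shock genes rather than of cytosolic chaperones alone.

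RNA-seq was performed on wild-type mouse brown preadipocytes, a single line immortalized with SV40 large T antigen, which had been differentiated in culture to day 7. Cells received vehicle, 5 µM triacsin C, an inhibitor of the acyl-CoA synthetases that activate long-chain fatty acids, or 50 µM etomoxir, an inhibitor of the carnitine palmitoyltransferase that admits fatty acids to mitochondria. After 1 h, each was followed by 3 h with or without 10 µM SR-3420, a ligand of ABHD5 that activates lipolysis by adipose triglyceride lipase without raising cAMP. Both inhibitors act on steps after fatty acids are released, so the response to SR-3420 could be compared with either inhibitor present.

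Vehicle (replicates 2 and 3) and SR-3420 alone (replicates 1 and 3) had 2 libraries each, and triacsin C, triacsin C + SR-3420, etomoxir and etomoxir + SR-3420 had 3 each, 16 in all. The dose of the ligand is the one on the sample labels, and the legend of the study's figure for this experiment gave a higher one. Total counts ranged from 9452861 to 25670624 per library. The 10 heat shock genes took between 0.0883% and 0.235% of them, and the lowest count of any of the 10 in any library was 22, for Hspa1a with etomoxir. A single immortalized line limits the results to that line, and the libraries hold RNA of whole cultures.

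Cells answer misfolded protein by releasing heat shock factor 1, the product of Hsf1, from chaperones that hold it inactive. The factor then forms trimers and binds inverted repeats of nGAAn in promoters, and its targets encode chaperones that hold, refold or hand over unfolded protein. HSP70 proteins do so in a cycle driven by ATP, with J-domain proteins bringing substrate and other partners releasing nucleotide.

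Promoters of Hspa1a, Hspa1b and Hspb1, which rose with SR-3420, and of Hspd1, for which no rise was called, are shown as examples of windows with a match to the factor's motif. Windows of 250 bases directly upstream of each gene's start in the count table were read 5′ to 3′ on the gene's strand from the NCBIM37 (mm9) assembly. Capitals mark the units of GAANNTTC and TTCNNGAA, the 2 ways in which neighbouring units can face each other, and both motifs read the same on either strand.
Hspa1a, chr17:35109102-35109351, minus strand: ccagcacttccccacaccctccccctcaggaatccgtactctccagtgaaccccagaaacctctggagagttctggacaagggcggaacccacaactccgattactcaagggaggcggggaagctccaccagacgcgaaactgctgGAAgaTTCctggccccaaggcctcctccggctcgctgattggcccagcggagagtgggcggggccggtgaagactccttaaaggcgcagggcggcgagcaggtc
Hspa1b, chr17:35096184-35096433, minus strand: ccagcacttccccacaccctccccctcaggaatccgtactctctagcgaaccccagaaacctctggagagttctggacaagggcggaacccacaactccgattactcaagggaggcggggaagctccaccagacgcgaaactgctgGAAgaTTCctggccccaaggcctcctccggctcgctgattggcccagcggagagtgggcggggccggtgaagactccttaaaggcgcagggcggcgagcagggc
Hspb1, chr5:136363539-136363788, plus strand: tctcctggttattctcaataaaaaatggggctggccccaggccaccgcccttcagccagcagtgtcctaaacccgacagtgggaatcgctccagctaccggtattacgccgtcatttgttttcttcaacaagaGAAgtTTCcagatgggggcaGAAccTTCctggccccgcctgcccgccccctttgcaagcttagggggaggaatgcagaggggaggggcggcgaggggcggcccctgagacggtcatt
Hspd1, chr1:55144777-55145026, minus strand: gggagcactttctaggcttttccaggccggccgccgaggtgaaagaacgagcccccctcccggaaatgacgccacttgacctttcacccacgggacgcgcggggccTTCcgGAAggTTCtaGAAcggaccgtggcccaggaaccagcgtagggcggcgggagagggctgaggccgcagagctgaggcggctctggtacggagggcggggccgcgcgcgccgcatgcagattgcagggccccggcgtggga
At least 1 of the motifs stood in 6 of the 10 promoters and in 11.4% of the 20295 windows of the same length. GAANNTTC was found in 5 of the 10 and in 5.84% of all windows, and TTCNNGAA in 3 of the 10 and in 6.41%. The 10 were chosen as targets of heat shock factor, so these shares are no test of its part in the results. In Hspa1a and Hspa1b the match lay between -104 and -97 from the start. These windows differed at 3 of 250 bases, so they are near copies rather than separate cases. Hsph1 had TTCNNGAA between -54 and -47. Neither motif was in the windows of Hsf1, Dnajb1, Hsp90aa1 and Bag3, which says only that these letters are not there.

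**Figure D1:**
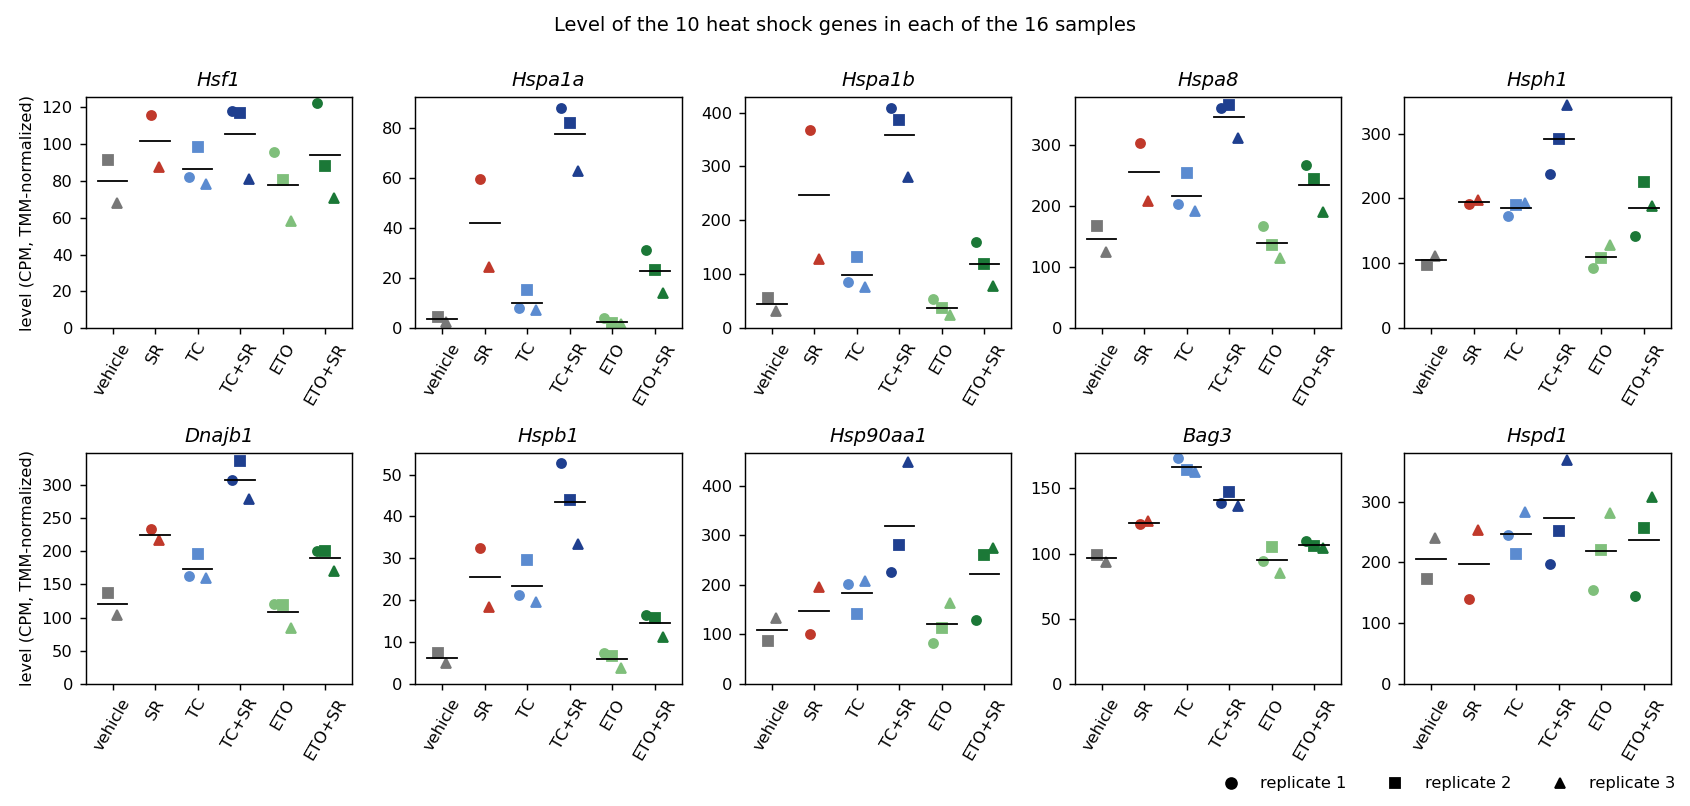
Levels in CPM of each of the 10 heat shock genes in all 16 libraries, by group, with circles, squares and triangles for replicates 1, 2 and 3 and a black line at the group mean. Hspa1a ranged from 1.82 CPM with etomoxir to 87.9 CPM with triacsin C + SR-3420.

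Together the 10 genes took more of the RNA in every library with SR-3420 than in any library with the same inhibitor and no SR-3420. In CPM (counts scaled to one common library size, after TMM), their sum was 920 and 912 with vehicle, 1354, 1433 and 1378 with triacsin C, and 872, 929 and 946 with etomoxir. With SR-3420 it was 1665 and 1454 without inhibitor, 2137, 2303 and 2347 with triacsin C, and 1322, 1538 and 1411 with etomoxir. The sum with triacsin C alone lay above that with vehicle or etomoxir in every library, and the highest sums were those with triacsin C + SR-3420.

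Per kilobase of counted sequence, which allows levels to be compared between genes, Hspd1 was the highest of the 10 with vehicle at 88.4 ± 20.4 CPM per kb (SD, n = 2), followed by Hspa8 at 69.3 ± 14.1 and Dnajb1 at 53.1 ± 10.7. The ranges of neighbours among these 3 overlapped, and that of Hsp90aa1 overlapped that of Dnajb1. Hsf1, Hsp90aa1 and Bag3 lay between 39.5 and 37.1 CPM per kb, with Hsph1 next, Hspa1b at 15.7 ± 5.87, Hspb1 at 6.77 ± 1.77, and Hspa1a lowest at 1.24 ± 0.540. With triacsin C + SR-3420 the highest means were those of Hspa8 at 164 ± 14.4 CPM per kb (SD, n = 3), Dnajb1 at 136 ± 12.5 and Hspa1b at 128 ± 24.5. The range of the stress-inducible Hspa1b overlapped that of Dnajb1 there, those of Hspd1 (84.8 to 158) and Hsp90aa1 (79.6 to 158) overlapped all 3, and Hspa1a remained lowest at 27.7 ± 4.68 CPM per kb.

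Hspa1a and Hspa1b encode the stress-inducible HSP70, which binds stretches of unfolded protein and is made in quantity only under stress. Without SR-3420, Hspa1a was at 4.53 and 2.4 CPM with vehicle, at 8.17, 15.2 and 7.21 CPM with triacsin C, and at 3.88, 1.97 and 1.82 CPM with etomoxir. With SR-3420 it was at 59.5 and 24.3 CPM without inhibitor, at 87.9, 81.9 and 62.8 CPM with triacsin C, and at 31.2, 23.2 and 13.8 CPM with etomoxir. Every library with SR-3420 lay above every library with the same inhibitor alone, and the lowest value with triacsin C + SR-3420 was above the highest with SR-3420 alone. Hspa1b was at 55.8 and 32.5 CPM with vehicle, 85.0, 132 and 75.9 CPM with triacsin C, and 53.3, 36.7 and 24.5 CPM with etomoxir. With SR-3420 it was at 367 and 128 CPM without inhibitor, 409, 387 and 280 CPM with triacsin C, and 160, 119 and 78.0 CPM with etomoxir. Its libraries with and without SR-3420 did not overlap within vehicle, triacsin C or etomoxir, although the ranges with SR-3420 alone and with triacsin C + SR-3420 did.

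Under triacsin C, SR-3420 raised 6 of the 10 heat shock genes, against 17.3% of all genes tested that were higher in this comparison (edgeR's quasi-likelihood test, Benjamini-Hochberg adjusted p below 0.05). Their median log2 fold change was 0.74, beside 0.02 for all genes. Hspa1a rose by 2.92 on the log2 scale (SE 0.43), with an adjusted p of 0.000204 in edgeR's quasi-likelihood test (Benjamini-Hochberg adjusted). Hspa1b rose by 1.88 (SE 0.41, adjusted p = 0.00310 in the same edgeR test). Fewer cells of a type and less RNA per cell cannot be told apart in such data.

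Under etomoxir, SR-3420 raised 6 of the 10, against 12.5% of all genes tested that were higher. These were the same 6 genes as under triacsin C, all 6 of either list, and the median log2 fold change of the 10 was 0.78, beside 0.01 for all genes. In edgeR's quasi-likelihood test (Benjamini-Hochberg adjusted), Hspa1a rose by 3.13 on the log2 scale (SE 0.46, adjusted p = 0.000375) and Hspa1b by 1.64 (SE 0.41, adjusted p = 0.0107). The calls of both genes held under both inhibitors with each library left out in turn and in every other alternative run.

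Hspa8 encodes the constitutive HSC70, which folds new proteins and uncoats clathrin vesicles. It was at 167 and 125 CPM with vehicle, at 202, 255 and 191 CPM with triacsin C and at 167, 136 and 115 CPM with etomoxir. With SR-3420 its values were 303 and 208 CPM without inhibitor, 360, 365 and 311 CPM with triacsin C, and 266, 244 and 190 CPM with etomoxir. The groups with and without SR-3420 did not overlap for any pretreatment. Hspa8 rose by 0.68 on the log2 scale under triacsin C (SE 0.20, adjusted p = 0.0155) and by 0.75 under etomoxir (SE 0.20, adjusted p = 0.0135) in edgeR's quasi-likelihood test (Benjamini-Hochberg adjusted). The first call was lost without triacsin C replicate 1 (adjusted p = 0.0555 in the same edgeR test) or replicate 3 (0.0653), and the second when only the compared groups were fitted (0.0640).

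Among the partners of HSP70, Hsph1 encodes an HSP110 that exchanges its nucleotide, and Dnajb1 a J-domain protein that stimulates its ATPase. Dnajb1 ranged from 159 to 197 CPM with triacsin C and from 280 to 337 CPM with triacsin C + SR-3420, and from 83.6 to 121 CPM with etomoxir and from 170 to 201 CPM with etomoxir + SR-3420. It rose by 0.83 under triacsin C (log2, SE 0.16, adjusted p = 0.00142) and by 0.82 under etomoxir (SE 0.16, adjusted p = 0.00272) in edgeR's quasi-likelihood test (Benjamini-Hochberg adjusted), and both calls held in every alternative run. Hsph1 rose by 0.65 on the log2 scale under triacsin C (SE 0.18, adjusted p = 0.0115) and by 0.75 under etomoxir (SE 0.18, adjusted p = 0.00799) in the same edgeR test. The first was lost without triacsin C + SR-3420 replicate 3 (adjusted p = 0.0565), and the second with only the compared groups fitted (0.0819). For both genes the groups with and without SR-3420 did not overlap under either inhibitor.

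Bag3 encodes a scaffold that links HSP70 to small heat shock proteins and to autophagy, and its pattern differed from that of Dnajb1 and Hsph1. It was at 99.1 and 93.5 CPM with vehicle, 173, 164 and 163 CPM with triacsin C and 94.2, 105 and 85.3 CPM with etomoxir. With SR-3420 it was at 122 and 125 CPM without inhibitor, 139, 147 and 136 CPM with triacsin C, and 109, 106 and 104 CPM with etomoxir. Its highest libraries were thus those with triacsin C alone, and all 3 of them lay above all 3 with triacsin C + SR-3420. The SR-3420 response under triacsin C was -0.24 on the log2 scale (95% CI -0.46 to -0.03) with an adjusted p of 0.0678 in edgeR's quasi-likelihood test (Benjamini-Hochberg adjusted), 0.0184 in DESeq2's Wald test, and 0.0456 in the edgeR test with only genes of at least 10 counts in every library. Under etomoxir it was 0.17 (95% CI -0.05 to 0.38, adjusted p = 0.241 in the edgeR test).

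Hspb1 encodes the small heat shock protein HSP27, which holds unfolded proteins without ATP until HSP70 takes them up. It was at 7.24 and 4.98 CPM with vehicle, 21.2, 29.7 and 19.4 CPM with triacsin C and 7.31, 6.63 and 3.81 CPM with etomoxir. With SR-3420 it was at 32.4 and 18.3 CPM without inhibitor, 52.8, 44.0 and 33.5 CPM with triacsin C, and 16.5, 15.6 and 11.2 CPM with etomoxir. The values with triacsin C alone thus lay within the range of those with SR-3420 alone. Hspb1 rose with SR-3420 by 0.89 under triacsin C (log2, SE 0.29, adjusted p = 0.0270) and by 1.28 under etomoxir (SE 0.30, adjusted p = 0.00750) in edgeR's quasi-likelihood test (Benjamini-Hochberg adjusted). The first call was lost without triacsin C replicate 1 (adjusted p = 0.0859), triacsin C replicate 3 (0.10) or triacsin C + SR-3420 replicate 1 (0.0988), and the second held in every alternative run.

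The remaining 3 genes passed the test under neither inhibitor. Hsp90aa1, the stress-inducible HSP90 that matures kinases and steroid receptors, ranged from 140 to 209 CPM with triacsin C and from 227 to 449 CPM with triacsin C + SR-3420, and its libraries overlapped under etomoxir. Its SR-3420 response was 0.80 on the log2 scale under triacsin C (95% CI 0.01 to 1.58, adjusted p = 0.103) and 0.88 under etomoxir (95% CI 0.10 to 1.67, adjusted p = 0.0945) in edgeR's quasi-likelihood test (Benjamini-Hochberg adjusted). The former passed with only the compared groups fitted (adjusted p = 0.0351 in the same edgeR test). The latter passed without etomoxir replicate 3 (0.0494) or etomoxir + SR-3420 replicate 1 (0.0329). With the replicate number as a block, both passed in this edgeR test (adjusted p = 0.00802 and 0.00287). Hsf1 itself ranged from 58.2 to 122 CPM over all libraries. Its responses were 0.29 (95% CI -0.22 to 0.80) and 0.27 (95% CI -0.24 to 0.78), and its groups overlapped under both inhibitors. Among libraries sharing a replicate number, which did not formally pair them, Hsf1 was always higher with SR-3420. Blocking on that number lowered its adjusted p in the edgeR test from 0.364 to 0.0921 under triacsin C. Under etomoxir it fell from 0.451 to 0.101, so Hsf1 still passed under neither. Hspd1 gave 0.14 (95% CI -0.55 to 0.84) and 0.11 (95% CI -0.59 to 0.81), with overlapping groups throughout.

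**Figure D2:**
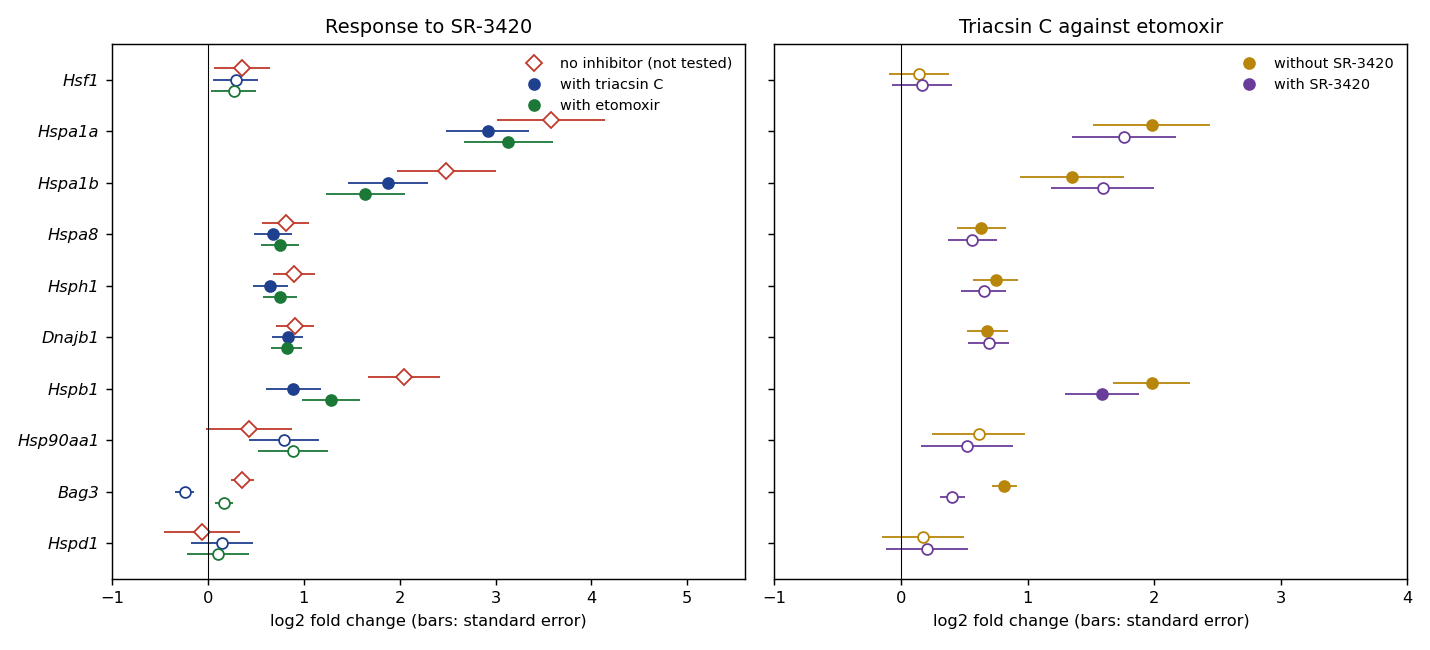
Log2 fold changes of the 10 heat shock genes in each comparison, with bars for the standard error. Filled circles are genes with an adjusted p below 0.05, open circles those at or above it, and open diamonds comparisons in which these genes were not tested. Hspa1a rose by 2.92 with SR-3420 under triacsin C and by 3.13 under etomoxir.

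The difference between the SR-3420 responses under triacsin C and under etomoxir was tested directly. By edgeR's quasi-likelihood test 0 of the 10 genes passed, against 2.29% of all genes tested in either direction. At an unadjusted p below 0.05 the count was 1, against 12.5% of all genes tested, and DESeq2's Wald test also called 1, against 5.33%, in each case Bag3. On simulated counts the edgeR test found few response differences of 2-fold and most of 4-fold, so the 0 is to be read only with the intervals below. For Bag3 the response under triacsin C was lower than that under etomoxir by a log2 difference of -0.41 (95% CI -0.71 to -0.11), with an adjusted p of 0.181 in edgeR's test and 0.0225 in DESeq2's. The intervals of the most inducible genes were wide, at -0.22 for Hspa1a (95% CI -1.51 to 1.07), 0.24 for Hspa1b (95% CI -0.98 to 1.46) and -0.39 for Hspb1 (95% CI -1.28 to 0.50). For Dnajb1 the interval was narrower, at 0.01 (95% CI -0.48 to 0.51).

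Without SR-3420, 7 of the 10 genes were higher with triacsin C than with etomoxir, against 8.08% of all genes tested that were higher. The median log2 fold change of the 10 was 0.71, beside 0.07 for all genes. The small heat shock protein gene Hspb1 (log2 fold change 1.98, SE 0.31, adjusted p = 0.000646) and the co-chaperone gene Bag3 (0.81, SE 0.10, adjusted p = 0.000108) differed most clearly in edgeR's quasi-likelihood test (Benjamini-Hochberg adjusted), and their calls held in every alternative run. Hspa1a was higher by 1.98 (SE 0.46, adjusted p = 0.00988 in the same edgeR test) and Hspa1b by 1.35 (SE 0.41, adjusted p = 0.0378), and their groups did not overlap. Hspa8 (0.64, SE 0.20, adjusted p = 0.0409), Hsph1 (0.75, SE 0.18, adjusted p = 0.0115) and Dnajb1 (0.68, SE 0.16, adjusted p = 0.0115) completed the 7. Hsp90aa1 gave 0.61 (95% CI -0.17 to 1.40), Hspd1 0.17 (95% CI -0.53 to 0.87) and Hsf1 0.15 (95% CI -0.37 to 0.66).

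Several of these calls depended on single libraries or on the way of fitting. Without triacsin C replicate 2, which had the highest Hspa1a, Hspa1b, Hspa8, Dnajb1 and Hspb1 of its group, 3 genes were called, and Hspa1a (adjusted p = 0.0581), Dnajb1 (0.0609), Hspa1b (0.156) and Hspa8 (0.172) were not, in the same edgeR test. Hspa1b was also lost without triacsin C replicate 1 (0.0633) or 3 (0.0510) or etomoxir replicate 2 (0.105) or 3 (0.141), and Hspa8 without triacsin C replicate 1 (0.0708) or 3 (0.0555) or etomoxir replicate 2 (0.110) or 3 (0.154). With only the compared groups fitted, Dnajb1 (0.0546) and Hspa8 (0.0743) were not called, and neither was Hspa8 with no filter on low counts (0.0748). Scaling by library size alone moved the median of all genes from 0.07 to -0.06 and the calls from 1033 higher and 1125 lower to 621 and 1407, and Hsph1 then missed the threshold (adjusted p = 0.0631).

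With SR-3420 present under both inhibitors, Hspb1 was the 1 gene of the 10 that was called higher with triacsin C than with etomoxir, against 0.117% of all genes tested that were higher. Its 3 values with triacsin C + SR-3420, 52.8, 44.0 and 33.5 CPM, stood above the 16.5, 15.6 and 11.2 CPM with etomoxir + SR-3420. The log2 fold change was 1.59 (SE 0.29, adjusted p = 0.0402 in edgeR's quasi-likelihood test (Benjamini-Hochberg adjusted)). The call was lost without each of the 6 libraries in turn, with adjusted p from 0.0640 (without etomoxir + SR-3420 replicate 2) to 0.246 (without etomoxir + SR-3420 replicate 3), and with only the compared groups fitted (0.388). At an unadjusted p below 0.05, 7 of the 10 were higher, against 3.39% of all genes tested. DESeq2's Wald test called 6 higher, against 0.979% of the genes for which it gave an adjusted p. When replicate number was added as a block, edgeR's test called 7 of the 10 higher, against 0.915% of all genes tested. That number did not formally pair the libraries. Without the block, Hspa1a gave 1.76 (95% CI 0.88 to 2.65, adjusted p = 0.117 in edgeR's test) and Hspa1b 1.59 (95% CI 0.71 to 2.47, adjusted p = 0.184). The groups did not overlap for either gene.

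Contrasts with vehicle or with SR-3420 alone share libraries with the contrast used to choose the genes and with each other, and are given side by side without a test. With SR-3420 alone against vehicle the log2 fold change was 3.58 for Hspa1a (SE 0.57), 2.48 for Hspa1b (SE 0.52) and 2.05 for Hspb1 (SE 0.37), and the median of the 10 was 0.85. Without SR-3420 replicate 1, the higher of the 2 libraries, Hspa1a was at 2.79 and Hspa1b at 1.53. Against vehicle, triacsin C gave 1.93 for Hspb1 (SE 0.36), 1.55 for Hspa1a (SE 0.52), 1.14 for Hspa1b (SE 0.47), 0.83 for Hsph1 (SE 0.20) and 0.79 for Bag3 (SE 0.11), with a median of 0.77 over the 10. Etomoxir against vehicle gave a median of -0.04, with -0.43 for Hspa1a (SE 0.54) and -0.05 for Hspb1 (SE 0.35), and its libraries overlapped those of vehicle for each of the 10 genes. Against SR-3420 alone, the medians were 0.50 with triacsin C + SR-3420 and -0.17 with etomoxir + SR-3420.

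Hspa1a and Hspa1b are near copies of each other, so reads from one could have been counted for the other. Over 2893 aligned positions of the transcribed spans 88.4% were identical, and 62.4% of the 50-base windows of Hspa1a were also found in Hspa1b. In the single libraries, Hspa1b had 12.3 and 13.5 counts per Hspa1a count with vehicle, 10.4, 8.65 and 10.5 with triacsin C, and 13.7, 18.6 and 13.5 with etomoxir. With SR-3420 the ratio was 6.17 and 5.25 without inhibitor, 4.66, 4.73 and 4.47 with triacsin C, and 5.13, 5.10 and 5.64 with etomoxir. It was thus lower in each of the 8 libraries with SR-3420 than in any of the 8 without, and it was not tested. With the counts of both genes summed, an alternative chosen after seeing the data, the pair rose with SR-3420 by 2.02 on the log2 scale under triacsin C (SE 0.41, adjusted p = 0.00202) and by 1.80 under etomoxir (SE 0.41, adjusted p = 0.00655) in edgeR's quasi-likelihood test (Benjamini-Hochberg adjusted). Between triacsin C and etomoxir without SR-3420 the summed pair differed by 1.40 (SE 0.41, adjusted p = 0.0323 in the same edgeR test).

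**Figure D3:**
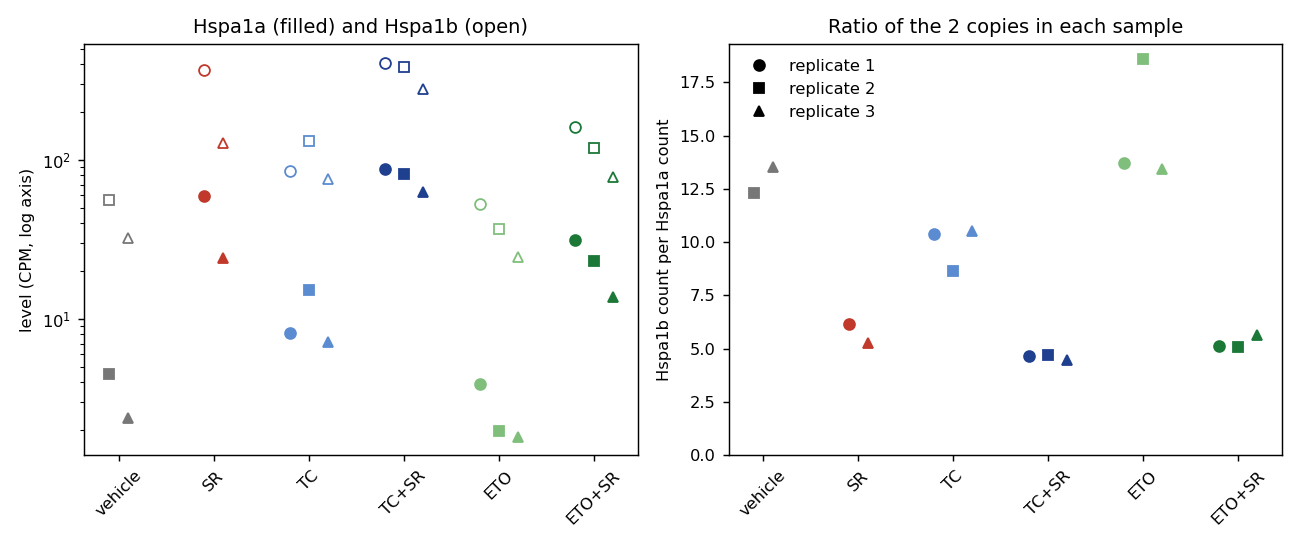
Levels in CPM of Hspa1a and Hspa1b on a log axis (left) and Hspa1b counts per Hspa1a count (right) in each library by group, with circles, squares and triangles for replicates 1, 2 and 3. The ratio was between 8.65 and 18.6 without SR-3420 and between 4.47 and 6.17 with it.

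Across the 16 libraries, the log2 CPM of Hspa1b (Pearson r = 0.982), Dnajb1 (0.971), Hspa8 (0.971) and Hspb1 (0.909) followed that of Hspa1a, with lower values for Hsph1 (0.830), Hsf1 (0.710), Hsp90aa1 (0.518), Bag3 (0.510) and Hspd1 (-0.029). Among 10718 genes, with Hspa1a itself at rank 1, Hspa1b ranked 2, Dnajb1 8 and Hspa8 9. Hspb1 ranked only 350, Hsph1 916, Hsf1 1607, Hsp90aa1 2646, Bag3 2679 and Hspd1 5438. These are descriptions, since the libraries share 6 treatments and the values within a treatment are not independent of it. Outside the group, the genes most like Hspa1a among 10718 compared were Anxa5 (0.980), which encodes a protein that binds phosphatidylserine, Jun (0.975), a subunit of the AP-1 transcription factor, Zyx (0.975), a focal adhesion protein, Rassf1 (0.973) and Serpinf1 (0.972). Jun, for example, averaged 217 CPM with vehicle, 404 CPM with triacsin C and 1241 CPM with triacsin C + SR-3420.

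The wider chaperone network was followed in lists of 79 other genes, of which 78 were tested. Under triacsin C, SR-3420 raised 7 and lowered 11 of them, beside 17.3% of all genes tested that were higher and 19.7% that were lower. Under etomoxir 7 rose and 4 fell, beside 12.5% and 12.8%. The medians of the 78 were 0.09 and 0.14 on the log2 scale.

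**Figure D4:**
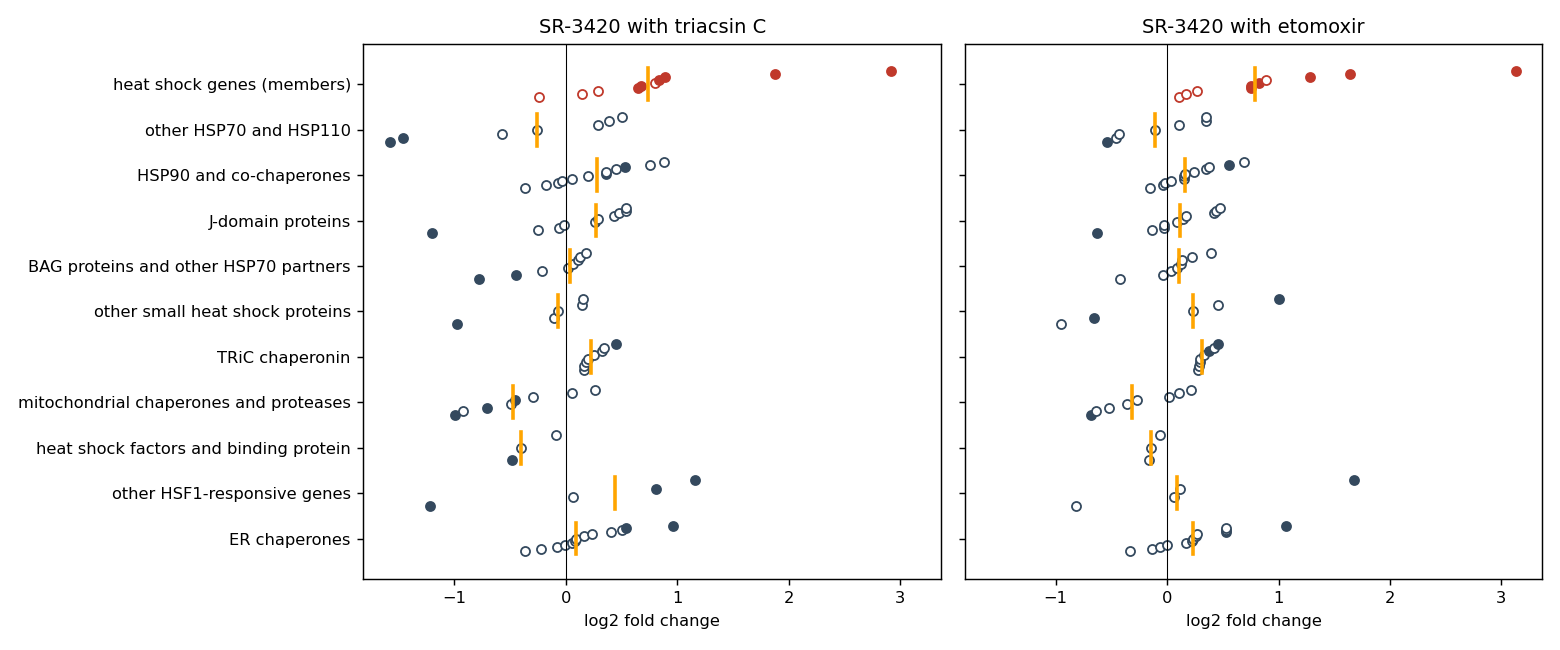
Log2 fold changes with SR-3420 of the genes in each chaperone list under triacsin C and under etomoxir on a common axis, with an orange line at each list's median. Mitochondrial chaperones and proteases had medians of -0.47 and -0.32, and the TRiC chaperonin 0.23 and 0.31.

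Of the 7 other HSP70 and HSP110 genes, SR-3420 lowered 2 under triacsin C and 1 under etomoxir, beside 19.7% and 12.8% of all genes tested. Hspa1l, a close relative of Hspa1a expressed mostly in testis, fell by 1.58 on the log2 scale under triacsin C (SE 0.18, adjusted p = 2.46e-05 in edgeR's quasi-likelihood test (Benjamini-Hochberg adjusted)), and Hspa2, an HSP70 needed in spermatogenesis, fell by 1.46 (SE 0.25, adjusted p = 0.000639). Under etomoxir Hspa1l fell by 0.54 (adjusted p = 0.0346 in the same edgeR test), a call lost without replicate 1 or 2 of etomoxir or 1 or 3 of etomoxir + SR-3420 (up to 0.132). The falls under triacsin C started from triacsin C values that were themselves above vehicle, as Hspa1l averaged 13.9 CPM with vehicle, 28 CPM with triacsin C and 9.35 CPM with triacsin C + SR-3420. Of the 6 other small heat shock proteins, 5 were tested. SR-3420 lowered 1 of them under each inhibitor, beside 19.7% and 12.8% of all genes tested, and raised 1 under etomoxir, beside 12.5%. Hspb8, the partner of Bag3 in chaperone-assisted autophagy, fell by 0.97 under triacsin C (SE 0.11, adjusted p = 2.70e-05) and by 0.66 under etomoxir (SE 0.11, adjusted p = 0.000778) in the same edgeR test. It averaged 175 CPM with vehicle, 337 CPM with triacsin C and 172 CPM with triacsin C + SR-3420. Hspb7 rose by 1.00 under etomoxir (adjusted p = 0.0142 in the same edgeR test, and 0.0668 without etomoxir replicate 2). Of the 10 J-domain proteins, SR-3420 lowered 1 under each inhibitor, beside 19.7% and 12.8% of all genes tested. This was Dnajb2, which fell by 1.20 and 0.63 (adjusted p = 2.34e-05 and 0.00362 in the same edgeR test). Dnajb2 averaged 71.7 CPM with vehicle, 124 CPM with triacsin C and 53.8 CPM with triacsin C + SR-3420.

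Among the 8 BAG proteins and other HSP70 partners, SR-3420 lowered 2 under triacsin C, beside 19.7% of all genes tested. The log2 fold change was -0.78 for Bag1 (SE 0.17, adjusted p = 0.00294 in edgeR's quasi-likelihood test (Benjamini-Hochberg adjusted)). It was -0.44 for Bag2 (adjusted p = 0.0137 in the same edgeR test, and 0.0596 without triacsin C + SR-3420 replicate 1). With vehicle, triacsin C and triacsin C + SR-3420, Bag1 averaged 273, 326 and 189 CPM. Bag2 averaged 35.2, 60.5 and 44.5 CPM, so its mean stayed above that with vehicle. Of the 12 genes for HSP90 and its co-chaperones, 2 rose under triacsin C and 1 under etomoxir, beside 17.3% and 12.5% of all genes tested. Stip1, which hands substrate from HSP70 to HSP90, rose by 0.53 under triacsin C (adjusted p = 0.00727), and the constitutive Hsp90ab1 by 0.55 under etomoxir (adjusted p = 0.00768) in the same edgeR test. The rise of Hsp90ab1 under triacsin C, 0.36 (adjusted p = 0.0440), was lost without each of the 6 libraries in turn, with adjusted p from 0.0549 to 0.119. Of the 8 subunits of TRiC, the chaperonin that folds actin and tubulin, 1 rose under triacsin C and 2 under etomoxir, beside 17.3% and 12.5% of all genes tested. Cct2 rose by 0.45 and 0.46 (adjusted p = 0.0205 and 0.0290) and Cct3 by 0.38 under etomoxir (adjusted p = 0.0391) in the same edgeR test. Cct2 was lost without triacsin C replicate 1 or 2 or triacsin C + SR-3420 replicate 3 (adjusted p up to 0.0897), and under etomoxir without replicate 1 or 2 of etomoxir or 2 or 3 of etomoxir + SR-3420 (up to 0.123). Cct3 was lost without replicate 2 or 3 of etomoxir or 1 or 2 of etomoxir + SR-3420 (up to 0.163).

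Of the 8 mitochondrial chaperones and proteases, SR-3420 lowered 3 under triacsin C and 1 under etomoxir, beside 19.7% and 12.8% of all genes tested. Trap1, the mitochondrial HSP90, fell by 1.00 and 0.68 on the log2 scale (adjusted p = 9.42e-05 and 0.00233 in edgeR's quasi-likelihood test (Benjamini-Hochberg adjusted)), and Grpel1, a nucleotide exchange factor of mitochondrial HSP70, by 0.71 under triacsin C (adjusted p = 0.000345). Trap1 overlaps Dnase1 and Grpel1 overlaps Tada2b in the annotation, and the strand used for counting was not given in the sources used here, so these values are uncertain. Dnaja3 fell by 0.45 under triacsin C (adjusted p = 0.0359), a call lost without any single library of the 2 groups but triacsin C + SR-3420 replicate 3 (adjusted p up to 0.136). Of the 3 other heat shock factors and their binding protein, 1 fell under triacsin C, beside 19.7% of all genes tested. This was Hsbp1, which fell by 0.48 (adjusted p = 0.0354 in the same edgeR test), a call lost without any of these libraries but triacsin C + SR-3420 replicate 1 (up to 0.128).

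Among other genes known to respond to heat shock factor, Ier5, which promotes dephosphorylation of the factor, rose by 1.16 on the log2 scale under triacsin C (SE 0.16, adjusted p = 0.000104) and by 1.67 under etomoxir (SE 0.16, adjusted p = 1.63e-05) in edgeR's quasi-likelihood test (Benjamini-Hochberg adjusted). Dedd2 fell by 1.22 under triacsin C (adjusted p = 0.0146; lost without triacsin C replicate 2 or triacsin C + SR-3420 replicate 3, up to 0.0608, in the same edgeR test). Of 13 chaperones of the endoplasmic reticulum, which lie outside the group by its definition, 2 rose under each inhibitor, beside 17.3% of all genes tested under triacsin C and 12.5% under etomoxir. Hspa5, the HSP70 of that compartment, rose by 0.96 and 1.06 (adjusted p = 0.000206 and 0.000202), and its nucleotide exchange factor Hyou1 by 0.54 and 0.52 (adjusted p = 0.00501 and 0.00909) in the same edgeR test.

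For the list genes the contrasts with vehicle were tested as well, with the limit that the lists were chosen with earlier results of these data known. SR-3420 alone raised 2 of the 78, beside 4.75% of all genes tested, namely Hspa5 (log2 fold change 1.16, adjusted p = 0.00160) and Ier5 (1.00, adjusted p = 0.00728; 0.0742 at the highest, lost without vehicle replicate 3 or SR-3420 replicate 1) in edgeR's quasi-likelihood test (Benjamini-Hochberg adjusted). It lowered 0 of them, beside 2.79% of all genes tested, with 4 at an unadjusted p below 0.05, beside 9.7%, and 0 by DESeq2's Wald test, beside 5.76%. Scaling by library size alone moved the median of all genes in this contrast from -0.00 to -0.12 and the calls from 607 higher and 357 lower to 467 and 572. Triacsin C alone raised 9 of the 78, beside 4.77% of all genes tested, and lowered 0, beside 6.94%, with 1 lower at an unadjusted p below 0.05, beside 12.1%, and 0 by DESeq2's Wald test, beside 9.1%. These 9 were Hspa2, Hspa1l, Hsp90ab1, Ahsa1, Ahsa2, Dnajb2, Bag2, Hspb8 and Ier5, and without vehicle replicate 3 the count fell to 1. Hsp90ab1 and Ahsa1 were lost without each triacsin C library in turn, and Ahsa2 without triacsin C replicate 2 or 3. Ahsa2 also overlaps Usp34 in the annotation, so its value is uncertain in the same way as those of Trap1 and Grpel1. Hspb8 rose by 0.95 (SE 0.12, adjusted p = 0.000232 in the same edgeR test) and was called without each library in turn. Etomoxir alone changed 0 of the 78, beside 0.0235% of all genes tested in either direction, with 1 at an unadjusted p below 0.05, beside 2.21%, and 0 by DESeq2's Wald test, beside 0.15%.

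Some calls of list genes depended on the way of fitting. With only the compared groups fitted, Hspa1l, Hsp90ab1, Hspb7, Cct2, Cct3 and Hyou1 were not called with SR-3420 under etomoxir, Hspa5 and Ier5 not with SR-3420 alone, and Hsp90ab1, Ahsa1, Ahsa2 and Ier5 not with triacsin C against vehicle. With no filter on low counts, Hspa1l, Cct2 and Cct3 were not called under etomoxir, Bag2, Dnaja3 and Hsbp1 not under triacsin C, and Hsp90ab1, Ahsa1 and Ahsa2 not with triacsin C against vehicle. With library size alone, Cct2 and Cct3 were not called under etomoxir, Hsp90ab1 and Dnaja3 not under triacsin C, and Hsp90ab1 and Ahsa2 not with triacsin C against vehicle. Hsp90ab1 under triacsin C was also lost when only genes with at least 10 counts in every library were kept.

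Marker genes of the cells were read beside these results. The 9 brown adipocyte markers, of which 8 were tested and Fabp4 was the most abundant, summed to 12057 and 11401 CPM with vehicle and 8592 and 8393 CPM with SR-3420. They summed to 12937, 13546 and 13607 CPM with triacsin C and 4849, 5007 and 5439 CPM with triacsin C + SR-3420, and to 11710, 10933 and 12504 CPM with etomoxir and 5914, 4665 and 7899 CPM with etomoxir + SR-3420. SR-3420 lowered 4 of the 8 under either inhibitor, beside 19.7% of all genes tested under triacsin C and 12.8% under etomoxir, and raised 1, Prdm16, under triacsin C, beside 17.3%. With triacsin C 2 of the 8 were lower than with etomoxir, beside 8.8%. The defining marker Ucp1 was at 0.461 to 3.66 CPM in all 16 libraries, with higher means with SR-3420 (2.26 against 1.22 CPM without inhibitor, 3.2 against 1.85 CPM with triacsin C and 2.87 against 1.29 CPM with etomoxir), and Dio2 was at 0 to 0.127 CPM. Within each pretreatment the sum of the 9, most of it from Fabp4, Adipoq and Plin1, was lower in all libraries with SR-3420 than without, and its part in the heat shock results was not tested.

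The 6 preadipocyte or fibroblast markers, of which Col1a1 was the most abundant, summed to 1581 and 1371 CPM with vehicle, 3581 and 2583 CPM with SR-3420, 2228, 1975 and 1691 CPM with triacsin C and 4139, 3447 and 2732 CPM with triacsin C + SR-3420. With etomoxir the sums were 1953, 1393 and 914 CPM, and with etomoxir + SR-3420 they were 4232, 3038 and 2047 CPM. SR-3420 raised 2 of the 6 under triacsin C and 4 under etomoxir, beside 17.3% and 12.5% of all genes tested, and their part in the heat shock results was not tested. The 3 leukocyte markers summed to 0.738 to 2.45 CPM, the 2 endothelial markers to 0.0829 to 1.1 CPM and the 3 muscle markers to 2.24 to 9.28 CPM. Ptprc, Emr1, Pecam1, Cdh5 and Myog were at 0 in at least 1 library.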

How the data were processed

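RNA-seq counts per gene were deposited by the authors as raw counts: reads were aligned to mm9 with STAR 2.4.2a, HOMER kept 1 read per position and length, and iRNA-seq counted them, per the study's methods and the submitters' processing notes. From these counts, edgeR 4.0.16 in R 4.3.3 fitted all 16 libraries in 6 groups without covariates (TMM, filterByExpr, quasi-likelihood test, Benjamini-Hochberg over 12786 genes, threshold 0.05). The members and lists were chosen with earlier results of these data known. The legacy setting of glmQLFit was taken after it was seen to give the counts of calls of an earlier analysis of these data, and the fit without it was added as an alternative. Named list genes were at most 4 called genes per list, by absolute log2 fold change. A called list gene and a promoter window are not reported here. Genes like Hspa1a needed a mean count of at least 50, and log2 CPM used a prior count of 2. Alternatives were DESeq2 1.42.0, other scalings, filters and sample sets, the replicate number as a block, and leaving out each library. The test script was tested on simulated data. Keeping 1 read per position can lower counts of highly expressed genes; the 10 genes reached 0.490 to 3.15 reads per counted base, against 331 for Cfd, the highest of all genes.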

Additional observations from a re-analysis of the deposited data

Results flagged for a closer look

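Among 110 genes looked at (the heat shock genes, the chaperone lists, the marker genes and the genes most like Hspa1a), the SR-3420 response differed between triacsin C and etomoxir by the test of that difference for 1, Hspa1l, beside 2.29% of all genes tested. Its response was lower under triacsin C by a log2 difference of -1.04 (SE 0.24, adjusted p = 0.0432 in edgeR's quasi-likelihood test (Benjamini-Hochberg adjusted)). Hspa1l averaged 28 CPM with triacsin C and 9.35 CPM with triacsin C + SR-3420, against 14.7 CPM with etomoxir and 10.1 CPM with etomoxir + SR-3420. The call was kept without 2 of the 12 libraries in turn, etomoxir replicate 1 and etomoxir + SR-3420 replicate 1, with adjusted p between 0.0303 and 0.124 over the 12. It was also lost with library size alone, with no filter on low counts and with only the compared groups fitted.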

How the results depend on the processing

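Of 1405 log2 fold changes recomputed with other scalings, the replicate number as a block, Hspa1a and Hspa1b summed, without the legacy setting or with a library left out, 1244 kept their direction and side of the threshold (or, untested, moved by less than 1 SD), 90 fell short of it, 13 newly passed, 17 untested values moved and 41 changed sign, in each case a heat shock gene's value that had not passed. Other filters, the compared groups alone and DESeq2's Wald test were compared by calls only. Where no cause is given, the cause was not tested. Groups of 2 or 3 libraries limit all tests, and where vehicle or SR-3420 was left with 1 library it was assumed to vary like the others. Hspa1a at 22 to 1372 counts and Hspb1 at 46 to 824 are the least deeply counted of the 10. Without the legacy setting, added after seeing the data, every call of the 10 was kept and 1 list call was lost, Hsp90ab1 with triacsin C against vehicle.

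With each library left out, the heat shock genes called between triacsin C and etomoxir numbered 3 to 7 without SR-3420 (4.28% to 8.17% of all genes higher) and 0 with it (0.0235% to 0.164%), and for the latter 0 with only the compared groups fitted and 6 by DESeq2's Wald test, which called 1 for the response difference. For the list genes, leaving out each library gave 1 to 3 higher with SR-3420 against vehicle (1.48% to 2.79%), 4 to 8 higher with SR-3420 under etomoxir (8.13% to 12.6%) and 1 to 7 higher with triacsin C against vehicle (1.37% to 3.24%). With only the compared groups fitted these were 0, 2 and 5 (0.37%, 5.1% and 3.81% of all genes), with 11 higher with SR-3420 under triacsin C (22.7%) and 1 lower with triacsin C against vehicle (8.12%). Library size alone gave 1 lower with SR-3420 against vehicle (4.47%) and 8 lower with SR-3420 under etomoxir (15.9%), and DESeq2's Wald test 8 lower there (15.5%) and 14 higher with triacsin C against vehicle (6.82%).

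Leaving out each library moved the response difference (log2) of Hsf1 over -0.15 to 0.26, Hspa1a -0.67 to 0.20, Hspa1b -0.081 to 0.52, Hspa8 -0.22 to 0.063, Hsph1 -0.26 to 0.071, Dnajb1 -0.079 to 0.17, Hsp90aa1 -0.42 to 0.12 and Hspd1 -0.24 to 0.28. It moved Hsf1 between triacsin C and etomoxir over -0.027 to 0.32, and Hspd1 over -0.027 to 0.40 there, -0.073 to 0.45 with SR-3420 in both, -0.14 to 0.33 with SR-3420 under triacsin C and -0.13 to 0.37 under etomoxir. The response difference of Hspa8 was 0.014 with library size alone, and that of Hspa1a 0.22 with Hspa1b counts added, chosen after seeing the data.

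Replicate numbers did not formally pair the libraries: deviations from group means correlated above 0.1 in 27 of 35 pairs with the same number (mean r = 0.41, lowest -0.29) and in 25 of 71 with different numbers (mean r = -0.2), and 11 of 16 libraries correlated best with their own number. With the replicate number as a block, the heat shock genes called were 7 higher and 1 lower with SR-3420 under triacsin C (27.5% and 28.7% of all genes), 7 higher under etomoxir (22.7%), 8 higher with triacsin C than with etomoxir (22.1%), 7 higher with SR-3420 in both (0.915%) and 1 for the response difference (8.25%). Hsp90aa1 was gained in the first 3 and Bag3 was the lower one (adjusted p = 0.00802, 0.00287, 0.0161 and 0.024 in edgeR's quasi-likelihood test). The response differences of Hsf1 and Hspd1 were -0.0036 and -0.0082. List genes called were 7 higher and 2 lower with SR-3420 against vehicle (11.1% and 7.94% of all genes), 18 higher under triacsin C (27.5%), 22 higher and 13 lower under etomoxir (22.7% and 22.5%), and 22 higher and 1 lower with triacsin C against vehicle (12% and 12.1%).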
